A study of Mus musculus with 5 samples.

Results

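The library of mouse bone marrow mesenchymal stem cells held at -200 mmHg was compared with the libraries held at -80, -120 and -160 mmHg. Genes entered the comparison when their mean over these 4 libraries was at least 5 FPKM (reads per exon length and per library total, as deposited). This held for 7524 of 55401 genes in the table. The mean includes the -200 mmHg library, so a gene high only there can enter and one low only there can stay out. For each gene the difference is the log2(FPKM + 1) at -200 mmHg minus the mean of the 3 other pressures, a scale that understates the change of genes with low values. At the limit, Rfxank lay just inside, with 4.79, 5.48, 4.905 and 4.83 FPKM at -80, -120, -160 and -200 mmHg, and Edc3 just outside, with 4.91, 5.28, 4.71 and 5.095 FPKM.

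All cells were wild-type BMSCs from mouse bone marrow, grown in T25 plates for 72 h, and a vacuum pump held each negative pressure for 48 h. A culture at 0 mmHg was the control. It took no part in the comparison, and its values are printed beside some genes as a description. The labels give 1 library for each of the 5 conditions, and neither the number of cultures nor of animals behind it. No difference between pressures therefore has a replicate check and no test between conditions was made. Genes were counted by a size rule instead: at least 1.5-fold (0.585 on the log2 scale) from the mean of the other 3 libraries and outside their range.

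BMSCs are adherent stromal cells of the marrow, able to become bone, fat or cartilage cells, and they lay down a collagen matrix that they grip through integrins. Cells sense pull on this matrix through integrins, stretch-gated channels such as Piezo1 and the transcriptional coactivators YAP and TAZ. Total RNA also holds short RNAs made apart from messenger RNA: small nucleolar RNAs (snoRNAs), which guide modification of ribosomal RNA and usually lie in introns of host genes, mitochondrial transfer RNAs cut out of long mitochondrial transcripts, and 7SK RNA, which holds the elongation kinase P-TEFb inactive.

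Library totals, worked out from the FPKM values, were 16600622 to 17012586 reads at the 3 other pressures. The -200 mmHg library was the deepest of the 4, with 18056998 reads. Mitochondrial genes took 2.41% to 2.76% of reads in the other 3 and 2.88% at -200 mmHg. Of 14 stromal markers 10 reached 5 FPKM, among them Pdgfra at 63.7 to 71.5 FPKM over the 4 pressures, and Thy1, Eng and Nt5e, which are often used to define these cells, stayed between 0.87 and 2.43 FPKM. Lepr stood between 0.205 and 0.393 FPKM. The macrophage markers Itgam, Tyrobp, C1qa, C1qb and C1qc were listed at 0 in all 4 libraries, and the 14 markers together summed to 67.8 to 75.5 FPKM, with 75.2 FPKM at -200 mmHg. Cd14, which stromal cells can also express, gave 50.3 to 55.6 FPKM of it. Lyz2 at 9.83 to 12.3 FPKM and Cd68 at 5.70 to 7.57 FPKM also entered the comparison. The granulocyte list summed to 24.1 to 31.2 FPKM, with 27.7 FPKM at -200 mmHg and Mpo, Ltf, S100a9 and Csf3r at 0. Most of this sum came from Camp, at 18.8 to 24.6 FPKM, and Prtn3, at 3.63 to 6.49 FPKM, which both entered the comparison. Lymphoid, erythroid and platelet, endothelial, osteoclast, epithelial and skeletal muscle markers held no member at 5 FPKM.

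Few genes set the -200 mmHg library apart. By the size rule 12 genes (0.159%) were higher and 8 (0.106%) were lower at -200 mmHg than at all 3 other pressures. With a smaller size of 0.32 on the log2 scale the counts were 57 (0.758%) higher and 42 (0.558%) lower, and 98.5% of genes lay within this size of the mean of the other 3. The same rule was applied to each other library in turn; these comparisons use the same 4 libraries, so they are not independent. In either direction it found 24 genes (0.319%) at -80 mmHg, 25 (0.332%) at -120 mmHg and 36 (0.478%) at -160 mmHg, against 20 at -200 mmHg. At the smaller size the counts were 162 (2.15%), 140 (1.86%) and 158 (2.1%), against 99 at -200 mmHg. The SD of the difference over genes was 0.14 for each of the 4 libraries. By the size rule the strongest pressure thus gave the lowest count of the 4 at both sizes, although the spread over genes was alike. Other measures gave another order. The median size of the difference, regardless of sign, was 0.087 at -80 and -200 mmHg, 0.085 at -120 mmHg and 0.070 at -160 mmHg. The exact binomial test of reads given at the end also did not place the -200 mmHg library last. Over the 7420 members with recovered reads, the 95% interval of the ratio of reads at -200 mmHg to the other 3 libraries lay above 1 for 1546 and below 1 for 1858 genes, with no adjustment for the number of genes. These exact Clopper-Pearson intervals, here and below, cover the counting of reads and not the spread between cultures. Most genes given an interval below were picked for a large difference in these same reads. For them an interval that leaves out 1 is thus no separate support.

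Of the 20 genes past the size rule, 15 have exons of under 200 nt in all and 1 codes for a protein. Over all 7524 genes these numbers were 77 and 7190. Such short genes were not particular to this library. They made up 21 of 24 genes past the rule at -80 mmHg, 20 of 25 at -120 mmHg and 20 of 36 at -160 mmHg. The 12 genes higher at -200 mmHg comprised 5 snoRNAs, 3 microRNA genes, 1 mitochondrial transfer RNA, 7SK, 1 pseudogene and the beta-defensin gene Defb25. The 8 lower genes comprised 5 pseudogenes, 2 snoRNAs and 1 mitochondrial transfer RNA. Their median was 20.4 reads per library for the higher and 26.1 for the lower genes, against 1048 over all 7524 genes. At these lengths 5 FPKM is only a handful of reads, and with a pseudocount of 5 in place of 1 the size was not reached by 8 of the 20. Leaving out 1 of the 3 other pressures also took genes under the size. Without -160 mmHg this held for Gm24270 (0.51), Gm3699 (-0.47), Gm27326 (-0.50) and Gm49326 (-0.49), besides Rn7sk. Without -120 mmHg it held for AF357399 (0.577), Gm45471 (0.41) and Gm14586 (-0.56), and without -80 mmHg for Rn7sk (0.55) and mt-Te (-0.56).

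**Figure D1:**
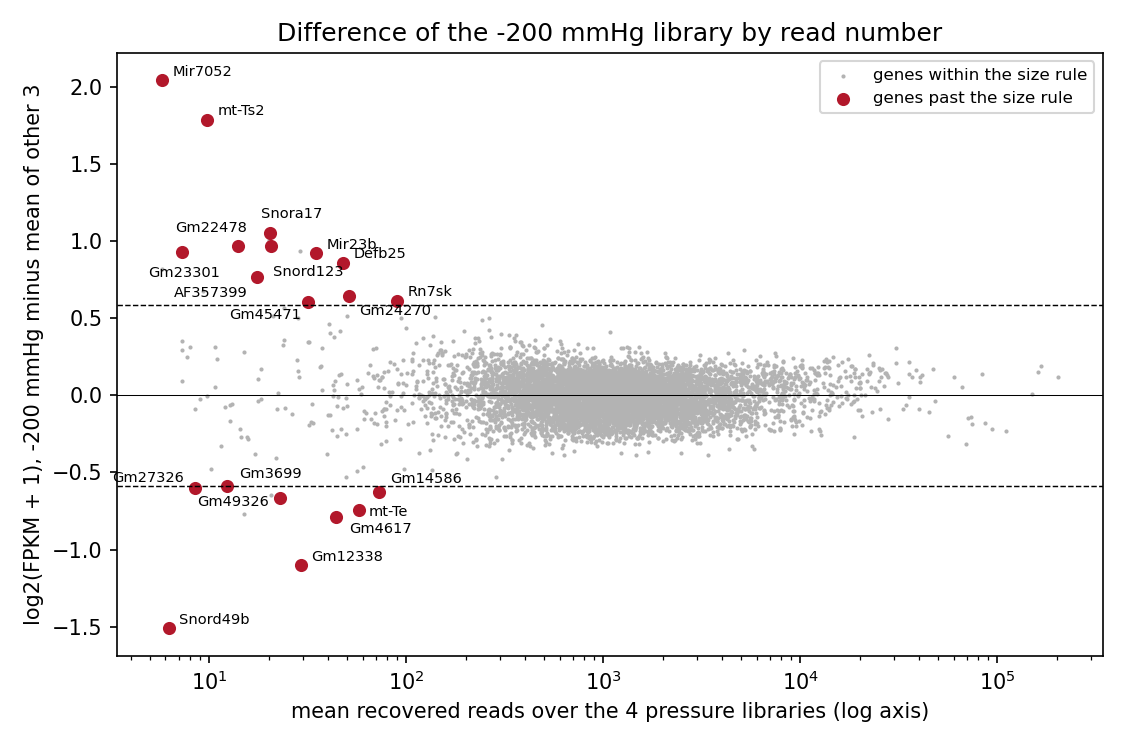
Difference in log2(FPKM + 1) between the -200 mmHg library and the mean of the 3 other pressures (vertical axis) against the mean recovered reads of each gene over the 4 pressure libraries (horizontal log axis), for 7420 genes. Dashed lines mark the size of 1.5-fold, and the 20 red genes, all with fewer than 100 reads on average, also lie outside the range of the other 3 libraries.

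Sequences of 2 snoRNAs and both mitochondrial transfer RNAs, with a higher and a lower one of each class, are printed here to show what these reads cover. Snord123 and Snord49b are box C/D snoRNAs, the class that guides 2'-O-methylation of ribosomal RNA. The capitals mark the first TGATGA, the letters of the C box, and the last CTGA, those of the D box. In Snord49b another TGATGA overlaps the marked one, and which copy is the C box was not tested. Snord123 (ENSMUSG00000089317.1) lies at chr15:32241853-32241923 on the minus strand of GRCm38, inside the noncoding host gene Snhg18. Snord49b (ENSMUSG00000064437.1) lies at chr11:62603079-62603150 on the plus strand, inside the noncoding host gene 2410006H16Rik. The mitochondrial transfer RNAs mt-Te, for glutamate, at chrM:14071-14139 on the minus strand, and mt-Ts2, for serine, at chrM:11613-11671 on the plus strand, have no capitals. All 4 are GENCODE M21 transcripts, written 5′ to 3′.
Snord123: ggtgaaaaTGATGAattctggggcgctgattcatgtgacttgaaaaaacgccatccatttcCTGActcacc
Snord49b: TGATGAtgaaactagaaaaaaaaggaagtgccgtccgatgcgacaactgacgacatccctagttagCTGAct
mt-Te: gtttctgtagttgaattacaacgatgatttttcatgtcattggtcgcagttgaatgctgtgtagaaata
mt-Ts2: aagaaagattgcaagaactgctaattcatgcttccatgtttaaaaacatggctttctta

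Of the 3 microRNA genes, Mir7052 and Mir23b were in the RefSeq table and Gm24270 was not. The mature sequences found there (RefSeq, GRCm38.p6) are given 5′ to 3′ with the seed, bases 2 to 8, in capitals. The 3p arm of miR-23b was not found there, so its seed is not shown. The miR-7052 arms lie at chr7:44470352-44470372 and chr7:44470391-44470411, and miR-23b-5p at chr13:63300492-63300512, all on the plus strand. The 3 seeds differ from each other.
mmu-miR-7052-5p: uGUGGGAAgguggaggccuuu
mmu-miR-7052-3p: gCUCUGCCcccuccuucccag
mmu-miR-23b-5p: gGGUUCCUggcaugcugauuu

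Among the higher short RNAs, Rn7sk (7SK RNA, 331 nt) had the most reads of the 20. It stood at 12.2, 20.9 and 9.41 FPKM at the 3 other pressures in order and at 21.1 FPKM at -200 mmHg, with 10.7 FPKM in the control. The -200 and -120 mmHg libraries were thus close together and the other libraries lay lower. The difference was 0.61, and the reads were 126 at -200 mmHg against 67, 115 and 53, a ratio of 1.49 (95% interval 1.19 to 1.86). Without the -160 mmHg library the difference was 0.38, and with the GC and length trend described at the end removed it was 0.57, both below the size rule.

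Mir23b, the hairpin gene of miR-23b, stood at 27.6, 18.7 and 20.7 FPKM at -80, -120 and -160 mmHg and at 42.7 FPKM at -200 mmHg, above all 3 others, with 1.47 FPKM in the control. Its reads were 57 at -200 mmHg against 34, 23 and 26, a ratio of 1.91 (1.34 to 2.71). The hairpin lies in the coding gene 2010111I01Rik, which stood at 14.6, 16.1, 15.7 and 14.8 FPKM over the same 4 pressures and did not share this pattern. Mir7052 stood at 1.85, 1.85 and 3.62 FPKM and then 12.8 FPKM at -200 mmHg, which is the largest difference of all 7524 genes (2.04). It entered the comparison only through its -200 mmHg value, so this rank follows in part from the filter. The -200 mmHg value rests on 15 reads against 2, 2 and 4, and the ratio was 5.22 (2.08 to 14.2). Josd2, the deubiquitinase gene in which it lies, had 17.8, 21.6, 20.05 and 20.8 FPKM. Gm24270, within the gene Peak1, stood at 43.2, 57.1 and 37.1 FPKM and at 70.9 FPKM at -200 mmHg. Reads over a hairpin and reads of the transcript around it cannot be told apart here.

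The 2 mitochondrial transfer RNAs went opposite ways. Mt-Ts2 stood at 12.2, 6.13 and 0.996 FPKM at -80, -120 and -160 mmHg and at 18.8 FPKM at -200 mmHg, next to 20.3 FPKM in the control. Its difference was 1.79, on 20 reads at -200 mmHg against 12, 6 and 1. Mt-Tl2, the neighbouring leucine transfer RNA whose annotated span overlaps it, stood at 16.9, 39.0, 6.62 and 32.8 FPKM, so both were lowest at -160 mmHg. Mt-Te was lowest at -200 mmHg with 31.3 FPKM, against 68.8, 37.5 and 57.9 FPKM, a difference of -0.74. The ratio of mt-Te reads was 0.571 (0.394 to 0.810), and without the -80 mmHg library the difference was -0.56, below the size rule.

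Of the snoRNAs past the size rule 5 were higher and 2 lower at -200 mmHg. Snord123 had 21.2, 7.64 and 12.4 FPKM at the other pressures and 25.7 FPKM at -200 mmHg (33 reads, ratio 1.87, 1.17 to 2.97), while its host Snhg18 had 45.3, 54.3, 54.5 and 54.9 FPKM. Snora17, a box H/ACA snoRNA of the class that guides pseudouridylation, had 10.02, 4.11, 6.68 and 14.7 FPKM (35 reads at -200 mmHg, ratio 2.12, 1.32 to 3.36). AF357399, within the ribosomal protein gene Rps16, had 9.62, 4.82, 6.11 and 11.96 FPKM. Gm23301 lies within the ribosomal protein gene Rpl17 and had 7.40, 5.56, 2.71 and 10.2 FPKM. It had 12 reads at -200 mmHg against 8, 6 and 3, and its interval of 0.856 to 4.36 includes 1. Gm22478 lies opposite Snrnp70 and had 5.85, 4.30, 2.29 and 8.63 FPKM. Its mean over the 4 libraries was 5.27 FPKM, and like Mir7052 it entered the comparison only through its -200 mmHg value. In the other direction, Snord49b had 5.84, 8.37 and 4.90 FPKM and 1.54 FPKM at -200 mmHg, which is 2 reads against 7, 10 and 6 (ratio 0.242, 0.0277 to 0.979). Its host 2410006H16Rik stood at 217, 228, 218 and 223 FPKM. Gm27326, a snoRNA within Rpl23, had 5.69, 5.07, 6.81 and 3.498 FPKM, and its interval of 0.202 to 1.47 includes 1.

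The protein-coding gene past the size rule was Defb25, a beta-defensin of the antimicrobial peptide family. It stood at 9.85, 8.63 and 5.02 FPKM and at 14.6 FPKM at -200 mmHg, near the 14.1 FPKM of the control. The reads were 77 against 48, 42 and 25, a ratio of 1.86 (1.38 to 2.51). The pseudogenes had few reads as well. Gm12338, the lowest of them, had 11.9, 11.9, 7.96 and 4.33 FPKM (15 reads at -200 mmHg), Gm4617 6.72, 9.65, 10.5 and 4.68 FPKM, and Gm14586 10.9, 12.8, 11.2 and 7.19 FPKM. Gm49326 had 7.03 FPKM at -200 mmHg against 9.54 to 15.4 FPKM, and Gm3699 8.81, 10.4, 12.5 and 6.65 FPKM, and both intervals include 1. Gm45471 was higher, with 6.42, 4.07, 6.69 and 9.07 FPKM. Pseudogenes can share reads with their parent genes, so these values are uncertain.

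**Figure D2:**
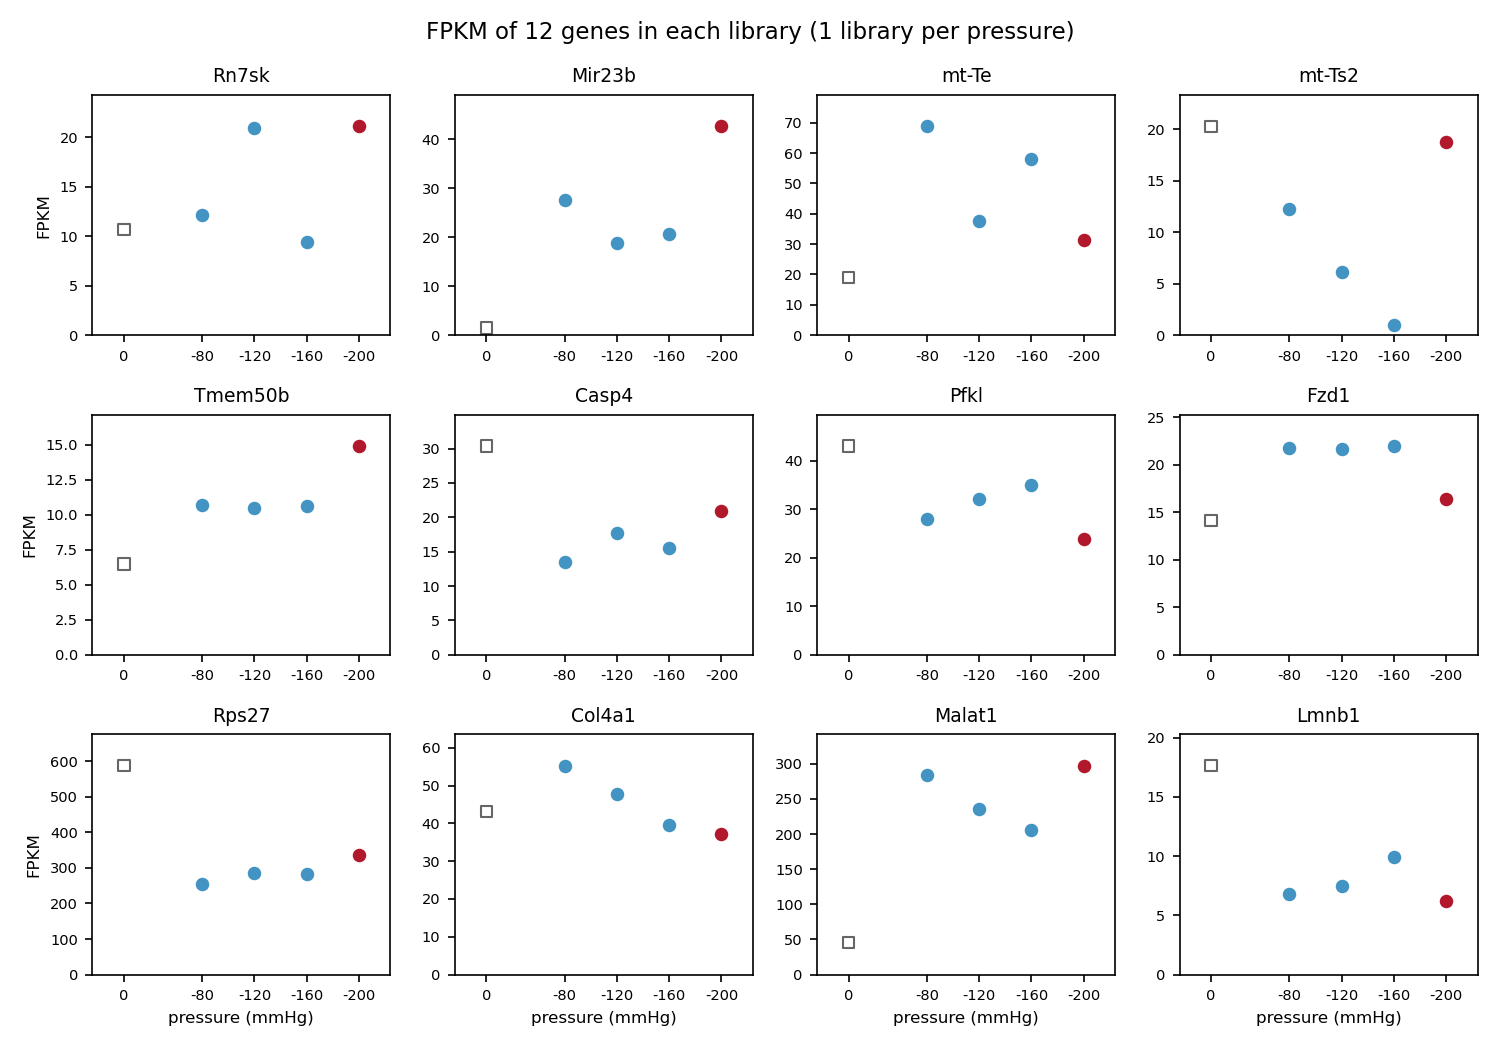
FPKM (vertical axes, each from 0) of 12 genes in the 5 libraries, 1 point per library; the horizontal axes give the pressure, the open square is the control, blue points are -80, -120 and -160 mmHg and the red point is -200 mmHg. Tmem50b and Fzd1 hold nearly one level at the 3 other pressures and step away at -200 mmHg, by 0.46 and -0.39 on the log2 scale, whereas Rn7sk at -200 mmHg is as high as at -120 mmHg.

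Among protein-coding genes with at least 200 reads on average, none passed the size rule, and the 12 with the largest differences in each direction are described as values. Lsm5, a part of the ring that binds U6 small nuclear RNA, was highest at -200 mmHg with 24.7 FPKM against 14.9, 15.4 and 22.0 FPKM, so that it was nearly as high at -160 mmHg. Tmem50b, a membrane protein, was nearly level at 10.7, 10.5 and 10.6 FPKM and stood at 14.9 FPKM at -200 mmHg (ratio 1.41, 1.28 to 1.55). Casp4, the inflammatory caspase that senses cytosolic lipopolysaccharide, stood at 13.5, 17.7 and 15.5 FPKM and at 20.9 FPKM at -200 mmHg, a difference of 0.41, with 30.4 FPKM in the control. Mrps18c, of the small subunit of the mitochondrial ribosome, was higher at each step, from 13.0 to 15.1, 17.2 and 20.1 FPKM. Id2, an inhibitor of basic helix-loop-helix factors and a target of BMP signalling, stood at 7.22, 8.60, 7.57 and 10.3 FPKM (ratio 1.33, 1.18 to 1.48). Fcf1, needed to process ribosomal RNA, stood at 24.8, 27.1, 26.4 and 33.9 FPKM. The mitochondrial iron-sulfur protein gene Cisd3 stood at 22.2, 26.2, 22.2 and 31.0 FPKM, and the palmitoyltransferase gene Zdhhc13 at 5.56, 5.52, 6.95 and 8.09 FPKM. Mllt11, Triqk, Mien1 and Znrd1as completed the 12, with differences of 0.37 to 0.42.

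In the other direction Pfkl, the liver-type phosphofructokinase of glycolysis, stood at 27.9, 32.2 and 35.0 FPKM and at 23.9 FPKM at -200 mmHg. That is a difference of -0.39 on 2883 reads at -200 mmHg, and the ratio was 0.754 (0.723 to 0.786). Fzd1, a Wnt receptor, held 21.7, 21.7 and 22.0 FPKM and stood at 16.4 FPKM at -200 mmHg (ratio 0.755, 0.708 to 0.804). Both genes lay below all 3 other pressures. The splicing factor Srsf9 stood at 45.8, 48.7, 45.1 and 35.6 FPKM. Hnrnpa0, an RNA-binding protein of AU-rich messages, stood at 133, 144, 130 and 106 FPKM (ratio 0.783, 0.759 to 0.808). Ubqln2, a shuttle that brings ubiquitinated proteins to the proteasome, stood at 33.4, 30.4, 30.01 and 24.05 FPKM. Rsad2 (viperin), an interferon-induced antiviral enzyme, stood at 8.93, 10.02, 11.7 and 7.70 FPKM. The spindle protein gene Tacc3 stood at 5.09, 5.31, 7.18 and 4.32 FPKM, and the sialyltransferase gene St3gal2 at 31.3, 32.9, 27.7 and 23.3 FPKM. Pdxp, Gpsm1, Zbtb22 and Zfp503 completed the 12, with differences of -0.41 to -0.35.

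Genes of a process often lay on the same side of the other libraries although no single one was large. Over all 7524 genes the -200 mmHg library was the highest of the 4 in 1906 (25.3%) and the lowest in 2096 (27.9%), which is the background for the counts below. Genes higher at each step from -80 to -200 mmHg numbered 523 (6.95%), and genes lower at each step 496 (6.59%). The median difference over all genes was -0.01, and the differences of 90% of genes lay between -0.217 and 0.195.

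The cytosolic ribosomal proteins, the protein parts of the 2 subunits that translate messenger RNA, stood highest at -200 mmHg. Of 79 measured members 68 were highest of the 4 libraries and 1 was lowest, with a median difference of 0.15. Rps27, of the small subunit, stood at 254, 287 and 283 FPKM and at 337 FPKM at -200 mmHg (difference 0.30, ratio 1.23, 1.19 to 1.26). Rpl36a, of the large subunit, stood at 239, 257 and 255 FPKM and at 303 FPKM (ratio 1.21, 1.18 to 1.24). Rplp0, of the ribosomal stalk, stood at 878, 965, 942 and 1024 FPKM. Rps27 and Rplp0 stood at 587 and 1610 FPKM in the control, where the summed level of the list was 55032 FPKM against 32773 FPKM at -200 mmHg and 28203 to 30772 FPKM at the other pressures. With each library in turn set against the other 3 the list medians were -0.13 at -80 mmHg, 0.03 at -120 mmHg and -0.05 at -160 mmHg. The list is short in exons (median 1770 nt against 3960 nt for all genes). With the trend of the difference on GC share and exon length removed, a setting added after the data were seen, the median was 0.09 and 54 of 79 were highest, and after quantile normalization it was 0.07 and 53 of 79. No member reached the smaller size of 0.32.

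Other groups of the cell's protein and energy supply leaned the same way with smaller values. Of 73 nuclear genes of oxidative phosphorylation 37 were highest and 5 lowest (median 0.08). Ndufs8, of respiratory complex I, stood at 55.3, 59.4, 60.0 and 69.2 FPKM. Of 32 proteasome genes 18 were highest and 2 lowest (median 0.08), and 8 were higher at each step. Psmb2, of the catalytic core, was 55.0, 63.0, 66.4 and 75.9 FPKM in that order. With the trend removed, the medians of these 2 lists were 0.04 and 0.03, and without the -80 mmHg library both were 0.05. With the trend removed 33 of 73 and 11 of 32 were highest, beside 25.7% of all genes in that setting. For oxidative phosphorylation the list medians at -80, -120 and -160 mmHg, each in turn, were -0.10, 0.05 and -0.04. For the proteasome they were -0.13, 0.04 and 0.01. In both lists the median at -80 mmHg lay further from 0 than that at -200 mmHg.

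Of 12 measured mitochondrially encoded genes 6 were highest and 1 was lowest (median 0.13, but 0.02 with the trend removed or after quantile normalization, and 0.06 without the -120 mmHg library). With the trend removed 3 of 12 were highest, beside 25.7% of all genes, and after quantile normalization 1 of 12, beside 26.9%. The list medians with each other library in turn were -0.01 at -80 mmHg, -0.18 at -120 mmHg and 0.04 at -160 mmHg. The light-strand gene mt-Nd6 stood at 2447, 2203, 2561 and 2881 FPKM (ratio 1.20, 1.18 to 1.21), and the small ribosomal RNA mt-Rnr1 at 338, 364, 349 and 411 FPKM. The energy-chain genes mt-Atp6 and mt-Co3 stood at 30.9 and 27.6 FPKM at -200 mmHg, against 28.1 to 37.6 and 28.5 to 29.4 FPKM at the other pressures, so members did not move as one. Both lay far below the median level of the list, 10.3 on the log2(FPKM + 1) scale at -200 mmHg. The reason for their low levels was not tested.

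Chaperones of the endoplasmic reticulum and genes of the unfolded protein response were highest at -200 mmHg in 16 of 33 and lowest in 4 (median 0.08, but 0.05 with the trend removed and 0.04 after quantile normalization). After quantile normalization 10 of 33 were highest, beside 26.9% of all genes in that setting. The list medians with each other library in turn were -0.08 at -80 mmHg, 0.01 at -120 mmHg and 0.01 at -160 mmHg. Hspa5 (BiP), the main chaperone of this compartment, was higher at each step, with 324, 348, 371 and 390 FPKM. Herpud1, of protein degradation there, did the same with 74.6, 80.7, 81.4 and 90.6 FPKM. The stress sensor Eif2ak3 (PERK) was lowest, at 8.32, 8.69, 9.03 and 7.53 FPKM. Ddit3 (CHOP), the transcription factor of prolonged stress, stood at 79.1, 93.5, 90.4 and 97.8 FPKM, with 79.1 FPKM in the control.

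Antioxidant and NRF2 target genes were highest in 21 of 38 and lowest in 5 (median 0.07 with and without the trend, and 0.10 without the -160 mmHg library). The glutathione transferase gene Gstm5 stood at 51.8, 55.6 and 51.7 FPKM and at 65.7 FPKM at -200 mmHg (ratio 1.24, 1.16 to 1.32), and Gstm1 at 110, 124, 115 and 140 FPKM. The quinone reductase Nqo1 was higher at each step, with 6.54, 7.25, 7.53 and 8.74 FPKM. Hmox1, which degrades heme, stood at 255, 288, 287 and 305 FPKM, and the metallothionein Mt2 was lower at each step, with 74.7, 65.2, 62.0 and 54.7 FPKM. Of 34 lysosomal enzyme genes 14 were highest and 4 lowest (median 0.05), with Gaa, the acid alpha-glucosidase, lowest at 122 FPKM against 130 to 160 FPKM. The antioxidant list medians at -80, -120 and -160 mmHg, each in turn, were -0.08, 0.02 and -0.03. Those of the lysosomal list were -0.05, 0.08 and -0.03, so its median was larger at -120 mmHg than at -200 mmHg.

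**Figure D3:**
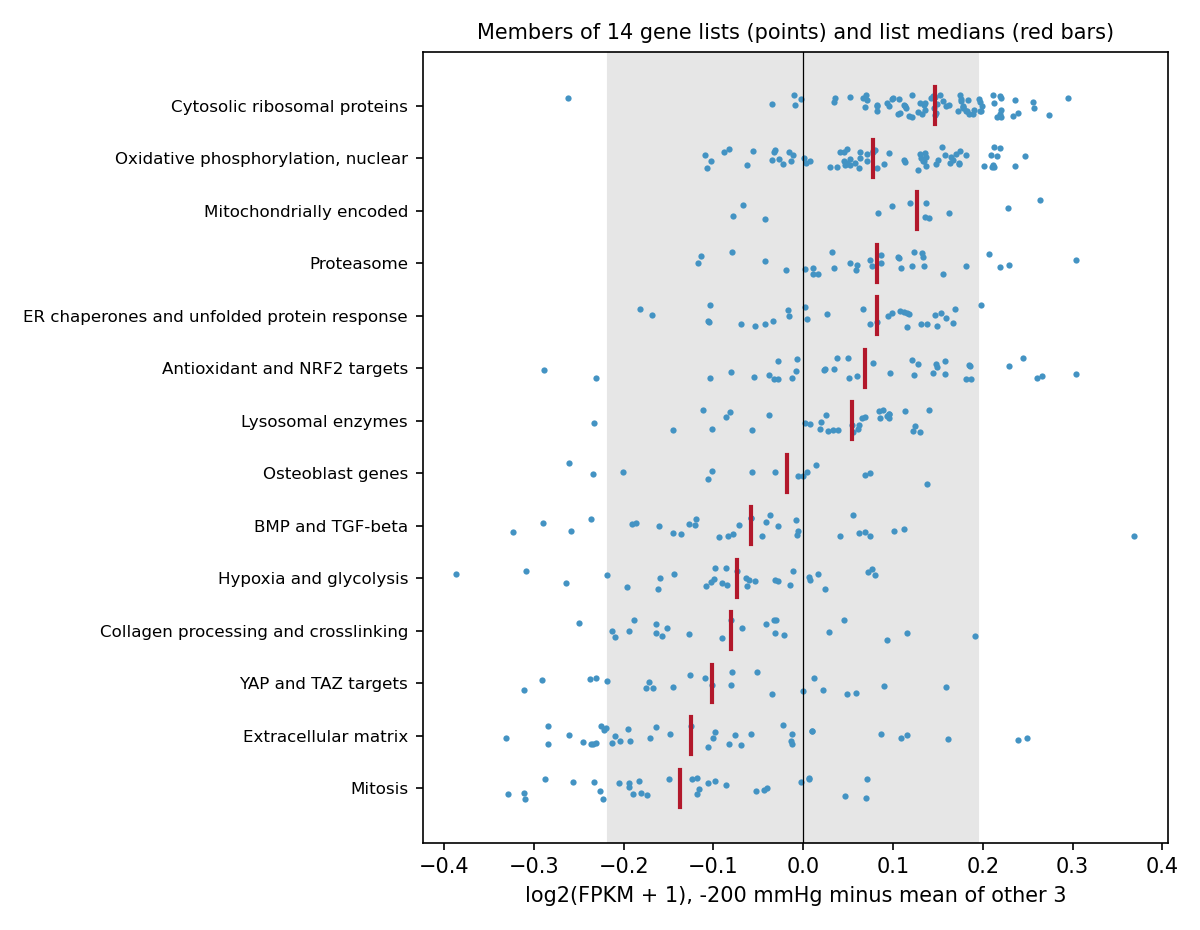
Difference in log2(FPKM + 1) between the -200 mmHg library and the mean of the other 3 pressures (horizontal axis) for the measured members of 14 gene lists, 1 blue point per gene with a vertical scatter that carries no value, and the list median as a red bar. The grey band spans the 5 to 95 percentiles of all 7524 genes (-0.217 to 0.195); most ribosomal protein points lie right of 0 and most matrix and mitosis points left of it, and most of them stay inside the band.

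Matrix genes leaned the other way. Of 39 measured genes of the extracellular matrix 19 were lowest and 6 highest at -200 mmHg, with a median difference of -0.13, and 11 of 39 were lower at each step from -80 to -200 mmHg. Col4a1, a basement membrane collagen, stood at 55.2, 47.9, 39.6 and 37.3 FPKM (difference -0.33, ratio 0.784, 0.760 to 0.809). Lamc1, a laminin chain of the same membranes, stood at 23.9, 21.9, 19.6 and 17.7 FPKM. Fn1 (fibronectin), which links cells to collagen, stood at 532, 510, 432 and 420 FPKM. The 2 chains of collagen I, the main fibre of bone, were lowest at -200 mmHg too: Col1a1 stood at 551, 564, 455 and 435 FPKM and Col1a2 at 574, 567, 496 and 463 FPKM. In these 5 genes the -160 mmHg library lay nearest to the -200 mmHg library. Col3a1 did not share the pattern, with 223, 203, 215 and 211 FPKM.

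The 6 members that were highest at -200 mmHg were Dcn, Mfap5, Mgp, Bgn, Fbln5 and Fbln1. Dcn (decorin), which binds collagen fibrils, stood at 144, 137, 137 and 166 FPKM (ratio 1.19, 1.17 to 1.21). Mfap5, a microfibril protein, stood at 32.8, 32.5, 32.6 and 38.7 FPKM, and Bgn (biglycan) at 582, 565, 548 and 612 FPKM. Matrix messages are long and rich in GC (list medians 6911 nt and 53.03%). With the GC and length trend removed the list median was -0.03 and 9 of 39 were lowest, beside 26.3% of all genes. The excess of lowest members was thus not seen in that setting. With each library in turn the list medians were 0.15 at -80 mmHg, 0.03 at -120 mmHg and -0.10 at -160 mmHg.

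Of 23 genes that process and crosslink collagen 11 were lowest and 3 highest (median -0.08, and -0.04 with the trend removed; -0.05 and -0.13 without the -120 or the -160 mmHg library). Adamts2, the protease that trims procollagen, stood at 58.7, 66.0, 57.0 and 50.7 FPKM, with 7.12 FPKM in the control. The lysyl oxidase homologues Loxl1 and Loxl2, which crosslink fibres, stood at 26.1 and 13.0 FPKM at -200 mmHg, against 26.9 to 32.1 and 14.3 to 15.5 FPKM at the other pressures. Ppib, a prolyl isomerase that helps collagen fold, was highest, with 49.1, 53.4, 48.2 and 57.4 FPKM. Of 17 metalloproteinases and inhibitors 5 were lowest and 2 highest, close to the background for the lowest (median -0.06, but -0.0042 with the trend removed), and Timp3 stood at 38.6, 34.0, 34.9 and 30.7 FPKM.

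Genes of force sensing were described as a group because the study applied pressure. Of 23 genes of the YAP and TAZ list, pathway members and targets together, 14 were lowest and 1 highest (median -0.10, and -0.07 with the trend removed or with a pseudocount of 5). Lats1, the kinase that holds YAP out of the nucleus, stood at 10.1, 8.23, 10.1 and 7.42 FPKM (ratio 0.782, 0.727 to 0.839). Yap1 itself stood at 20.4, 19.3, 19.5 and 17.4 FPKM. Amotl2, a target that also restrains YAP, was lower at each step, with 131, 125, 112 and 104 FPKM. The most used target genes did not follow. Ccn2 (CTGF) was highest at -200 mmHg with 89.3 FPKM, hardly above the 89.2 FPKM at -160 mmHg, and stood at 71.7 and 79.6 FPKM at -80 and -120 mmHg. Ccn1 (CYR61) stood at 386, 464, 475 and 468 FPKM, and Ankrd1 at 81.4, 82.9, 91.5 and 86.5 FPKM.

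Of 22 mechanosensitive channels and integrins 8 were lowest and 1 highest (median -0.09, and -0.02 with the trend removed). Piezo1, the stretch-gated cation channel, was lower at each step, with 21.8, 17.3, 16.2 and 15.1 FPKM (ratio 0.821, 0.786 to 0.857). Itgb5, an integrin chain that binds vitronectin, stood at 63.9, 67.3, 54.9 and 51.4 FPKM. Actin and contractile genes were spread to both sides, with 8 of 27 highest, 10 lowest and a median of -0.01. Flnc, an actin crosslinker, stood at 21.9, 20.5, 16.9 and 15.7 FPKM, while Acta2, the smooth muscle actin, stood at 398, 359, 359 and 391 FPKM.

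Signalling genes of bone gave mixed values. Of 33 BMP and TGF-beta genes 11 were lowest and 4 highest (median -0.06, and -0.04 with the trend removed). The ligand Tgfb1 was lower at each step, with 7.01, 6.01, 5.84 and 4.81 FPKM (ratio 0.766, 0.687 to 0.852). Bmp4, a bone-forming ligand, stood at 21.9, 24.3, 21.3 and 23.7 FPKM and Grem1, its secreted antagonist, at 176, 164, 173 and 176 FPKM, with differences of 0.07 and 0.04. Among the intracellular targets Id2 was highest, as given above, while Id1 and Id3 stood at 28.1 and 88.1 FPKM at -200 mmHg, against 28.3 to 33.0 and 79.5 to 100.2 FPKM. Of 14 Wnt pathway genes 5 were lowest and 3 highest (median -0.09, and -0.03 with the trend removed), and the receptor Fzd8 stood at 17.4, 15.7, 14.4 and 12.5 FPKM.

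Of 35 osteoblast genes 14 were measured, 6 were lowest and 1 highest, with a median of -0.02. Without the -120 mmHg library the median was -0.07, and without the -80 mmHg library it was -0.0021. Runx2, the transcription factor that starts osteoblast formation, stood at 6.90, 6.11, 5.79 and 6.22 FPKM (ratio 0.994, 0.923 to 1.07). Spp1 (osteopontin) stood at 100.3, 81.7, 117 and 98.5 FPKM, a difference of -0.00. The -200 mmHg library lay inside the range of the other 3 in both genes. Alpl (alkaline phosphatase) and Sp7 (osterix) lay below the limit of 5 FPKM, with 0.894, 1.28, 0.977 and 1.26 FPKM for Alpl and 3, 4, 0 and 0 reads for Sp7. Of 12 adipocyte genes 4 were highest and 5 lowest, and Pparg, the fat cell regulator, was below the limit with 2.28 to 2.67 FPKM.

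Genes of mitosis were on the low side at -200 mmHg, and here the value turned on the -160 mmHg library. Of 32 measured members none was highest and 12 were lowest, with a median difference of -0.14. Cdc25b, a phosphatase that opens mitosis, was lower at each step, with 8.46, 6.66, 6.29 and 5.44 FPKM (ratio 0.762, 0.677 to 0.856). Lmnb1, a lamin of the nuclear envelope, stood at 6.82, 7.44, 9.92 and 6.23 FPKM, and Mki67, the proliferation marker, at 4.37, 4.197, 7.13 and 4.29 FPKM. Ccnb1, the mitotic cyclin, stood at 4.15, 4.36, 7.15 and 4.65 FPKM. In the last 3 genes the -160 mmHg library was the highest and the -200 mmHg library was close to -80 and -120 mmHg. With each library in turn the list medians were -0.12 at -80 mmHg, -0.12 at -120 mmHg and 0.35 at -160 mmHg. Without the -80 or the -120 mmHg library the median at -200 mmHg was -0.22. Against -80 and -120 mmHg alone the median at -200 mmHg was -0.00 and 9 of 32 were highest, beside 35.8% of all genes in that setting. In bulk RNA fewer dividing cells and less of these messages per cell cannot be told apart. DNA replication genes had a median of -0.01, with 5 of 25 highest and 7 lowest, and Mcm5, of the replicative helicase, stood at 6.88, 7.57, 11.1 and 6.78 FPKM.

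Glycolysis and hypoxia genes showed the same dependence. Of 31 members 12 were lowest and 1 highest, with a median of -0.07, and without the -160 mmHg library the median was 0.0074, on the other side of 0. Pfkl, given above, and Hk2, a hexokinase that starts glycolysis, were below every other pressure, with 9.86, 8.96, 9.49 and 7.42 FPKM for Hk2 (ratio 0.786, 0.726 to 0.851). Pdk1, which holds back pyruvate oxidation, stood at 5.69, 5.94, 7.77 and 5.37 FPKM. Hif1a, the oxygen-regulated factor, stood at 149, 128, 146 and 143 FPKM, Vegfa, an angiogenic factor, at 79.5, 73.8, 81.5 and 70.6 FPKM, and Gapdh at 387, 432, 493 and 460 FPKM. Of 33 genes of cholesterol and fatty acid synthesis 15 were lowest and 5 highest (median -0.07, but -0.03 with the trend removed and -0.10 without the -160 mmHg library). Acly, which makes cytosolic acetyl-CoA, stood at 33.9, 30.7, 31.6 and 27.7 FPKM.

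Inflammatory and early response genes did not move together. Il6, a cytokine of stromal cells, was higher at each step, with 7.62, 8.61, 9.37 and 11.1 FPKM (difference 0.34, ratio 1.30, 1.16 to 1.44), and it was the 1 of 29 cytokines and chemokines past the smaller size. In that list 11 were highest and 5 lowest (median 0.06, and 0.00 with the trend removed). Cxcl5, a neutrophil chemokine, stood at 258, 232, 244 and 277 FPKM, with 1820 FPKM in the control, and Ccl2 at 328, 333, 332 and 346 FPKM. Of 49 interferon-stimulated genes 5 were highest and 8 lowest (median -0.01), and Isg15, a ubiquitin-like modifier, stood at 74.7, 91.0, 86.5 and 75.8 FPKM. Of 29 immediate early genes 7 were highest and 14 lowest, beside 25.3% and 27.9% of all genes (median -0.04 with and without the trend). Jun, Junb, Jund, Fosl2 and Klf4 were among the 14, with differences of -0.20 to -0.14. Fos was highest at 60.8 FPKM against 51.3 to 53.6 FPKM, Nr4a1, an orphan nuclear receptor, was highest at 27.9 FPKM against 21.4 to 25.0 FPKM, and the stress gene Gadd45b was lowest at 29.9 FPKM against 34.2 to 41.1 FPKM.

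Malat1, a long nuclear RNA, stood at 285, 235, 206 and 297 FPKM (difference 0.31, ratio 1.23, 1.21 to 1.24), with 45.8 FPKM in the control. Its level at -200 mmHg was thus near that at -80 mmHg and above the other 2. Neat1, the scaffold RNA of paraspeckles, stood at 57.9, 53.3, 56.4 and 57.9 FPKM. Lrp1, a large endocytic receptor with one of the longest messages here (17717 nt, 57.9% GC), stood at 283, 254, 192 and 193 FPKM, and it was chosen after its values were seen.

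The difference at -200 mmHg ran with the composition and length of the messages. The genes were put in 5 equal groups by the GC share of their longest annotated transcript, from a median of 41.9% to 58.2%. Over these groups the median difference went from 0.05 through 0.02, -0.00 and -0.03 to -0.09. The -200 mmHg library was the highest of the 4 in 36.2% of the group with the least GC and in 9.97% of that with the most, and the lowest of the 4 in 7.04% and 47.2%. By exon length, from a median of 1444 nt to 8753 nt, the medians went from 0.05 to -0.04. The other libraries had trends of their own, from -0.10 to 0.12 over the GC groups at -120 mmHg and from -0.08 to 0.08 over the length groups at -80 mmHg. Among protein-coding genes past the smaller size, the 28 higher genes had a median GC share of 46.1% and exon length of 1944 nt, and the 22 lower genes 55.6% and 3962 nt. These trends move with the ribosomal protein, mitochondrial and matrix lists, and the part they have in those lists was not tested beyond the trend-removed values given above.

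**Figure D4:**
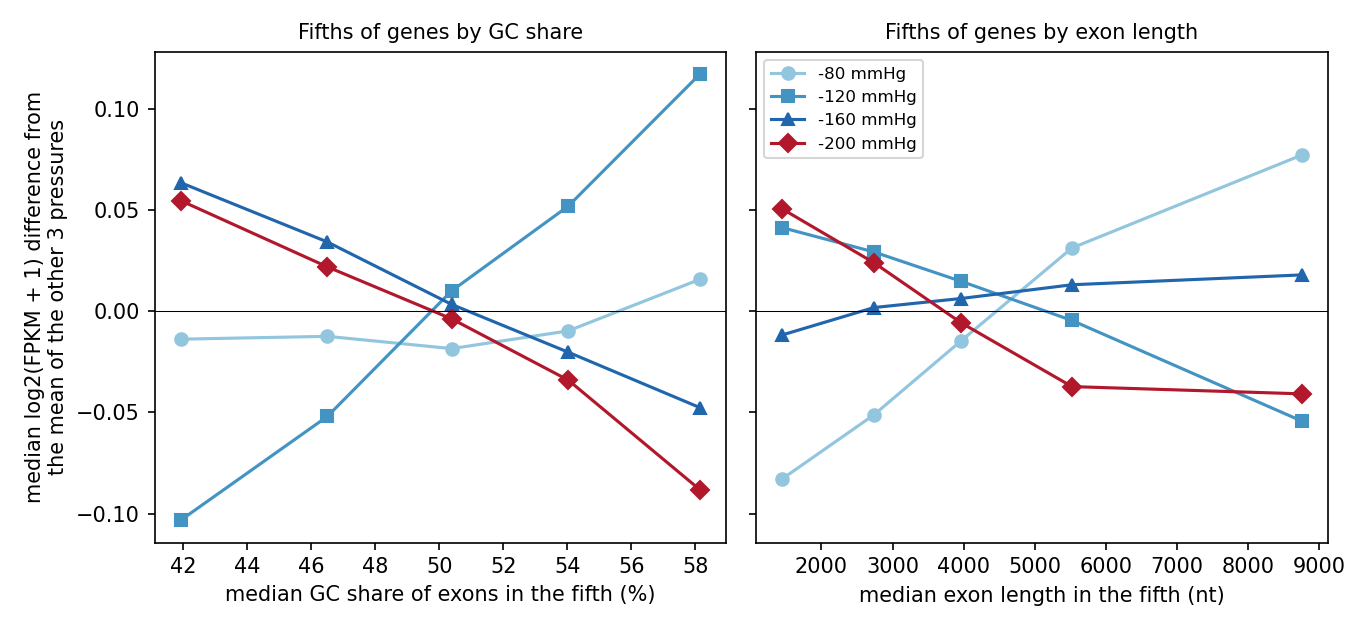
Median difference in log2(FPKM + 1) of each pressure library from the mean of the other 3 (vertical axis) in 5 equal groups of the 7524 genes, with 1 line per library. Groups are by GC share of the longest transcript (left, horizontal axis in %, labelled there as of exons) or exon length (right, in nt). The red -200 mmHg line goes from 0.05 to -0.09 over GC share and from 0.05 to -0.04 over length; the -120 mmHg line runs the opposite way over GC share and the -80 mmHg line over length.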

How the data were processed

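The 5 libraries were used as the authors deposited them, as FPKM values of each gene. The submitters' processing notes name the tools HISAT2, SAMtools and featureCounts 1.5.0-p3 and, as genome build, rn6 of the rat. The IDs are mouse Ensembl IDs. With GENCODE M21 (GRCm38) exon lengths, whole reads came back for 54719 of 55401 genes (tolerance 0.001). Genes at 0 FPKM in every library pass this at any exon length, and of the 7524 members 7420 passed. The mouse annotation was therefore taken (54349 IDs matched with version, 55141 in any version). Library totals ran from 16600622 to 18398911 reads. The strand setting was not given in the sources used here. Overlapping and antisense genes may thus share reads.

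A pseudocount of 1 was added before log2. With 1 library per condition the size rule replaced a test. Ratios compare reads per library total at -200 mmHg with the other 3 pressures pooled (exact Clopper-Pearson, 95%). The reads carry no molecular identifiers, so they are not independent. The members, gene lists and the naming rule were chosen with earlier results of these data known. The rule named up to 15 genes in each direction past the size rule with at least 50 reads, up to 4 members past it or else the 2 largest of each of 47 lists (39 with at least 5 measured members), 26 fixed genes and the genes at the FPKM limit. Named genes added later were the 12 largest coding differences in each direction with at least 200 reads and all genes past the size rule. Other list members are named as examples chosen after their values were seen. Alternatives were pseudocounts, FPKM and read limits, scalings, fold sizes, coding genes, comparators left out and an exact binomial test of reads, and, added after the data were seen, exons of at least 200 nt and removal of the GC and length trend (medians of 100 bins set to 0). The functions were tested on simulated data. Tools were Python 3.11.15, numpy 2.4.6, scipy 1.17.1, pandas 2.3.3 and matplotlib 3.10.9.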

Additional observations from a re-analysis of the deposited data

How the results depend on the processing

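The counts of 12 higher and 8 lower genes moved by over 1.5 times under these settings. With a mean of at least 1 FPKM they were 76 and 88, with no filter 323 and 145, and with at least 20 FPKM 2 and 1. At 2-fold they were 3 and 2, and at the smaller size of 0.32 on the log2 scale 57 and 42. With at least 50 reads on average 2 genes were higher and 2 lower, among protein-coding genes 1 and 0, and with exons of at least 200 nt 3 and 2. A pseudocount of 5 left 3 lower genes, and leaving out the -80 mmHg comparator gave 20 higher genes. Scalings (median, trimmed mean of log ratios, quantile), removal of the GC and length trend, a size from the mean alone and the other comparators left out kept both counts within 1.5 times. The exact binomial test of reads at a Benjamini-Hochberg level of 0.05 called 1285 genes higher and 1581 lower of 7420 at -200 mmHg. For each other library against the remaining 3 it called 1311 and 1434 (-80 mmHg), 1361 and 1332 (-120 mmHg) and 1141 and 864 (-160 mmHg). It compares those libraries, not the conditions. Over the 20 genes and all settings there were 24 cases of a gene under the size, and 8 of these were with a pseudocount of 5. The median of hypoxia and glycolysis genes went from -0.07 to 0.0074 without the -160 mmHg comparator, and the list's median at -160 mmHg in turn is 0.16. No paired analysis was possible because each condition has 1 library. With 1 library per condition the spread between cultures is unknown, and the 20 genes past the size rule have few reads.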
